A study of Mus musculus with 18 samples.

Results

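The genes of leukotriene and prostaglandin synthesis were followed across 3 stages of neutrophil formation in mouse bone marrow. The group was defined by symbol and holds 10 of the 34896 genes of the expression table: Pla2g4a, Alox5, Alox5ap, Lta4h, Ltc4s, Alox15, Ptgs1, Ptgs2, Ptges and Hpgds. RNA-seq was available for granulocyte-monocyte progenitors (GMP), proliferating neutrophil precursors (preNeu) and mature neutrophils (matNeu), with 3 libraries per cell type. ChIP-seq peak lists, 1 library each, gave the chromatin remodeller CHD4 in GMPs and dimethylation of histone H3 lysine 4 (H3K4me2), a mark of promoters and enhancers, in all 3 cell types. All mice were adult C57BL/6 animals of 6 to 12 weeks, and all libraries were wild type except a CHD4 library from GMPs of Gfi1-/- mice, which lack the transcriptional repressor GFI1. In the study's methods, marrow of several bones was pooled before GMPs were sorted. Nothing in the labels says that the 3 libraries of a cell type came from separate animals, so p-values measure the spread between these libraries, which may be technical.

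Eicosanoids are signalling lipids made from arachidonic acid, which cytosolic phospholipase A2 frees from membranes. In the leukotriene branch, 5-lipoxygenase, helped by its activating protein FLAP, makes leukotriene A4, which leukotriene A4 hydrolase turns into the neutrophil attractant leukotriene B4 or leukotriene C4 synthase into a cysteinyl leukotriene. In the prostaglandin branch, the cyclooxygenases make prostaglandin H2, from which terminal synthases make prostaglandin E2, D2 and others.

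The cell types were checked against marker genes, because for 13 of the 18 samples of the series, among them all 9 RNA-seq libraries, the title and the cell type entry of the labels name different cell types. The titles were followed, and the cell types of the CHD4 and H3K4me2 lists, which RNA markers cannot check, rest on them alone. The summed level of 6 GMP markers was 43546, 44150.2 and 45107 TPM (a gene's share of the library, corrected for transcript length) in the libraries titled GMP, 8734, 9749 and 9548 in preNeu and 9.99, 30.8 and 10.8 in matNeu, with Mpo, the neutrophil peroxidase, as the most abundant gene. The 6 preNeu markers, led by the granule gene Ngp, summed to 74.8, 65.6 and 79.6 TPM in GMP, to 137951, 124957 and 110247 in preNeu and to 6800 (6799.7), 8606 and 5665 in matNeu. The 6 matNeu markers, led by Retnlg, summed to 835, 718 and 721 TPM in GMP, 1042, 1182 and 1189.9 in preNeu and 30886, 28846 and 27308 in matNeu. Each list was thus highest in the libraries that carry its name in the title, without overlap between cell types.

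Markers of other cells were present at lower levels. Eosinophil markers summed to 948, 1156 and 900.1 TPM in GMP, led by Prg2, and to between 35.9 and 54.5 TPM in the other libraries, where Epx was listed at 0 in all matNeu libraries. Other genes of the list did not follow: Siglecf had means of 45.3, 19.5 and 41.7 TPM in GMP, preNeu and matNeu, most of the sum in matNeu, and Ccr3 of 0.311, 4.83 and 3.25 TPM. Basophil and mast cell markers summed to between 627 and 984 TPM in GMP and preNeu and to 1558, 1719 and 1838 TPM in matNeu, where Hdc, the histamine-forming enzyme, made up 1697 TPM of the mean of 1705. Without Hdc, no gene of that list had a mean above 2.62 TPM in matNeu. Monocyte and macrophage markers, led by Ly6c2, summed to between 2777 and 3437 TPM in GMP, 1697 and 2246 in preNeu and 1031 and 1523 in matNeu. These sums follow Ly6c2, with means of 2962, 1866 and 937 TPM in that order, while those of Cd68 were 62.2, 21.7 and 251 TPM and those of Adgre1 12.3, 11.4 and 83.8 TPM. Megakaryocyte and platelet markers, led by Itga2b, summed to between 36.4 and 51.5 TPM in GMP and had a mean sum of 8.20 TPM in preNeu and 8.19 TPM in matNeu, and Ppbp was listed at 0 in preNeu. Erythroid markers, led by Hbb-bs, stayed between 5.02 and 15.6 TPM in all libraries, with Hba-a1 at 0 in GMP. Lymphoid markers summed to between 458 and 610.3 TPM in GMP, 239.7 and 259 in preNeu and 33.9 and 79.0 in matNeu. They were led by Nkg7, with a mean of 539 TPM in GMP, 230.5 in preNeu and 1.95 in matNeu, while the B cell gene Cd79a had a mean of 0.270, 6.98 and 22.7 TPM in that order, and Cd3e was listed at 0 in GMP. What part these cells have in the levels below was not tested.

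Of the 10 genes, 9 passed the filter of at least 1 TPM in at least 3 libraries, and Ltc4s did not. Ptgs2 passed only through matNeu and 1 preNeu library, Hpgds only through GMP and preNeu libraries, and Alox15 through 3 libraries. Calls rest on a limma test of log2(TPM + 1) with Benjamini-Hochberg adjustment over all 13061 genes tested (adjusted p under 0.05), and log2 changes below are on that scale, which understates the change of low genes. From GMP to preNeu, 5 of the 9 were higher and 0 lower, where 14.7% of all genes tested were higher, 44.3% lower and 59.0% either. From preNeu to matNeu, 3 were higher and 5 lower, against 22.9%, 39.8% and 62.8% of all genes. Between GMP and matNeu, 3 were higher and 3 lower in matNeu, against 22.8%, 54.1% and 76.9%. The comparisons share libraries. TPM is a share of each library, of unknown depth, and the median log2 change of all genes was -0.52 from GMP to preNeu, -0.32 from preNeu to matNeu and -0.92 from GMP to matNeu. Scaling by median-of-ratios factors moved these medians by 0.43, 0.25 and 0.72, and the percent of called genes that were higher went from 25.0%, 36.5% and 29.6% to 45.1%, 47.2% and 45.2%. Quantile normalization moved the medians by 0.51, 0.34 and 0.96 and gave 48.1%, 50.3% and 50.2%. Of the 9 genes, 6 were higher and 0 lower from GMP to preNeu under either scaling, 3 and 5 from preNeu to matNeu, and 4 higher from GMP to matNeu, with 2 lower under median-of-ratios scaling and 1 under quantile normalization. Over all genes, 23.2% were higher and 28.2% lower at the first step, 30.2% and 33.8% at the second and 34.4% and 41.8% from GMP to matNeu with median-of-ratios scaling, and 25.3% and 27.2%, 31.5% and 31.1%, and 38.2% and 38.0% with quantile normalization. In bulk libraries, fewer cells of a type and less RNA per cell cannot be told apart.

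**Figure D1:**
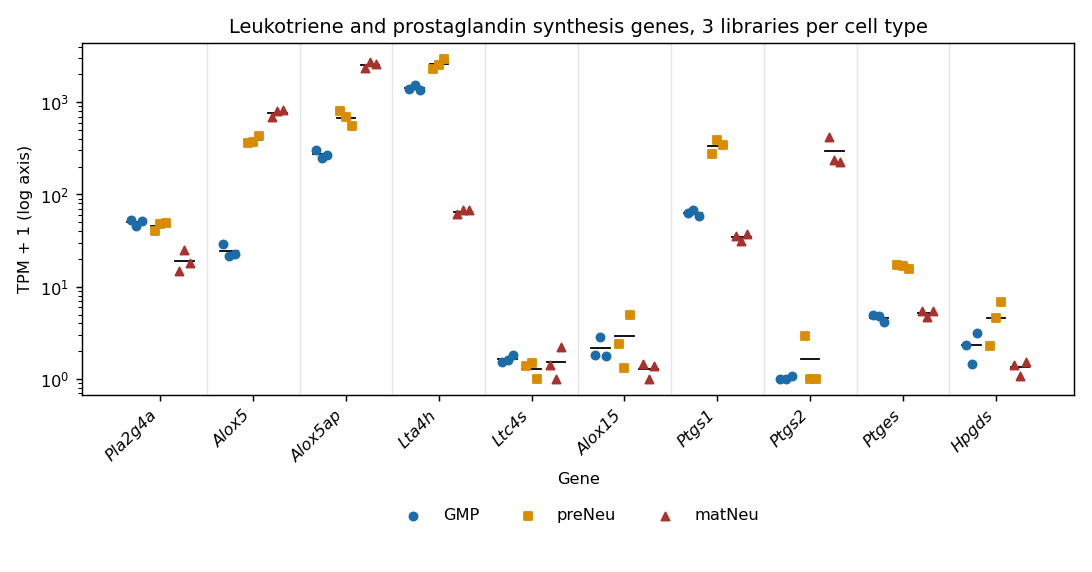
TPM + 1 on a log axis for the 10 genes in 9 libraries, 3 per cell type; each symbol is a library and each line the mean. Lta4h falls from a mean of 2581 TPM in preNeu to 64.3 TPM in matNeu, while Ptgs2 is at or below 1.96 TPM in GMP and preNeu and at 222 TPM or more in matNeu.

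Pla2g4a, the cytosolic phospholipase A2 that frees arachidonic acid, was at 52.3, 44.4 and 50.5 TPM in GMP, 38.8, 47.0 and 48.3 TPM in preNeu and 13.8, 23.8 and 16.9 TPM in matNeu. GMP and preNeu overlapped, and all 3 matNeu libraries lay below the other 6. The log2 change was -0.13 ± 0.20 (SE) from GMP to preNeu, which was not called (limma adjusted p = 0.594, n = 3 per group). It was -1.28 ± 0.20 from preNeu to matNeu (limma adjusted p = 0.000232, n = 3 per group) and -1.41 ± 0.20 from GMP to matNeu (limma adjusted p = 6.91e-05, n = 3 per group). With quantile normalization the last of these was -0.34 and no longer called. The change from GMP to preNeu turned to 0.37 with median-of-ratios scaling and to 0.39 with quantile normalization, without being called.

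The leukotriene genes moved in opposite directions at maturation. Alox5, 5-lipoxygenase, was at 28.3, 20.3 and 21.5 TPM in GMP, 361, 369 and 425 TPM in preNeu and 693, 794 and 824 TPM in matNeu. The groups did not overlap, and levels rose at both steps. The mean was 23.4 ± 4.30 TPM in GMP, 385 ± 34.9 in preNeu and 771 ± 68.7 in matNeu (SD, n = 3 each), a log2 change of 3.99 ± 0.14 (SE) at the first step (limma adjusted p = 1.02e-08) and 1.00 ± 0.14 at the second (limma adjusted p = 0.000115). Alox5ap, which codes for FLAP, was at 301, 245 and 267 TPM in GMP, 798, 686 and 546 TPM in preNeu and 2347, 2695 and 2610.1 TPM in matNeu. It too was higher in every library of the later stage, with log2 changes of 1.30 ± 0.14 (limma adjusted p = 2.75e-05, n = 3 per group) and 1.93 ± 0.14 (limma adjusted p = 7.28e-07, n = 3 per group). In matNeu it was the 47th gene of the table by mean TPM.

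Lta4h, leukotriene A4 hydrolase, was at 1393, 1536 and 1363 TPM in GMP, 2299.8, 2530.4 and 2914 TPM in preNeu and 59.8, 67.2 and 66.1 TPM in matNeu. It rose to preNeu, where it was the 28th gene by mean TPM, and every matNeu library was below every library of the other cell types. The mean in preNeu was 40.1 times that in matNeu. The log2 change was 0.85 ± 0.11 (SE) at the first step (limma adjusted p = 0.0001, n = 3 per group), -5.30 ± 0.11 at the second (limma adjusted p = 3.13e-10, n = 3 per group) and -4.45 ± 0.11 from GMP to matNeu (limma adjusted p = 2.45e-10, n = 3 per group). Because TPM is corrected for length and a factor common to a library cancels in a ratio, the genes can be set against each other inside a library, a comparison chosen after the values were seen. The ratio of Lta4h to Alox5 was 49.2, 75.6 and 63.3 in GMP, 6.37, 6.86 and 6.86 in preNeu and 0.0862, 0.0846 and 0.0801 in matNeu, so that the order of the 2 genes was inverted in mature cells. The ratio of Alox5ap to Alox5 was 10.6, 12.1 and 12.4 in GMP, 2.21, 1.86 and 1.28 in preNeu and 3.38, 3.39 and 3.17 in matNeu.

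Ltc4s, leukotriene C4 synthase, was at 0.543, 0.614 and 0.832 TPM in GMP, 0.388, 0.490 and 0 TPM in preNeu and 0.412, 0 and 1.21 TPM in matNeu. The GMP libraries lay above those of preNeu, the matNeu libraries overlapped with both, and it was not tested. Alox15, the 12/15-lipoxygenase, was at 0.809, 1.87 and 0.764 TPM in GMP, 1.40, 0.323 and 3.98 TPM in preNeu and 0.453, 0 and 0.396 TPM in matNeu. No comparison of Alox15 was called (limma adjusted p = 0.640, 0.0752 and 0.158, n = 3 per group), and the preNeu libraries overlapped with both other groups. Without preNeu replicate 2, the change from preNeu to matNeu was called at -1.45, against -0.99 with all libraries and -0.49, not called, without preNeu replicate 3. That from GMP to preNeu was 0.26, and -0.23 without preNeu replicate 3 and 0.72 without preNeu replicate 2, none of them called.

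In the prostaglandin branch, the cyclooxygenase genes exchanged places. Ptgs1, which codes for COX-1, was at 62.7, 66.9 and 56.9 TPM in GMP, 277, 385 and 347 TPM in preNeu and 34.2, 30.7 and 36.7 TPM in matNeu. It peaked in preNeu without overlap, with log2 changes of 2.41 ± 0.15 (SE; limma adjusted p = 5.85e-07, n = 3 per group) and -3.26 ± 0.15 (limma adjusted p = 1.99e-08, n = 3 per group). The change from GMP to matNeu was -0.86 ± 0.15 (limma adjusted p = 0.000318, n = 3 per group), but 0.0095 with median-of-ratios scaling and 0.0470 with quantile normalization, neither of them called. Ptgs2, which codes for the inducible COX-2, was at 0, 0 and 0.0784 TPM in GMP, 1.96, 0 and 0 TPM in preNeu and 423, 238 and 222 TPM in matNeu. GMP and preNeu were at or near 0, with 1 preNeu library at 1.96, and all matNeu libraries were far above. The log2 change was 7.62 ± 0.42 from preNeu to matNeu (limma adjusted p = 7.97e-08, n = 3 per group) and 8.11 ± 0.42 from GMP to matNeu (limma adjusted p = 2.27e-08, n = 3 per group), and was not called from GMP to preNeu (0.49, limma adjusted p = 0.352). Ptgs2 made up at most 0.702% of the summed TPM of both cyclooxygenases (a share also chosen after the values were seen) in GMP and preNeu libraries, and 92.5%, 88.6% and 85.8% in the matNeu libraries.

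Ptges, the inducible prostaglandin E synthase, was at 3.90, 3.83 and 3.14 TPM in GMP, 16.2, 15.7 and 14.5 TPM in preNeu and 4.41, 3.66 and 4.47 TPM in matNeu. It was highest in all 3 preNeu libraries, and GMP and matNeu overlapped. The log2 change was 1.83 ± 0.22 (SE; limma adjusted p = 4.37e-05, n = 3 per group) and then -1.67 ± 0.22 (limma adjusted p = 5.29e-05, n = 3 per group). From GMP to matNeu it was 0.16 (limma adjusted p = 0.502), but it was called higher in matNeu with median-of-ratios scaling (0.86) and with quantile normalization (1.50). Hpgds, the hematopoietic prostaglandin D synthase, was at 1.34, 0.462 and 2.19 TPM in GMP, 1.29, 3.53 and 5.83 TPM in preNeu and 0.403, 0.0826 and 0.520 TPM in matNeu. The matNeu libraries lay below all preNeu libraries (log2 change -1.65 ± 0.42, limma adjusted p = 0.00581, n = 3 per group) and overlapped with GMP. From GMP to preNeu the change was 0.90 (limma adjusted p = 0.0913), and it was called with median-of-ratios scaling (1.14), with quantile normalization (1.36) and without preNeu replicate 1 (1.33). Without preNeu replicate 3 it was 0.54 and without GMP replicate 2 0.60, neither of them called. From GMP to matNeu it was -0.75, not called (-1.05 to -0.48 without 1 library), and 0.0243 with quantile normalization.

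Over the 9 libraries, the patterns most like those of the members were found by the Pearson correlation of log2(TPM + 1) with 13060 other genes, as a description over libraries that fall into 3 cell types. Alox5 was most like Itgb2 (r = 0.999), the beta chain of leukocyte integrins, and Vsir (r = 0.999). Alox5ap was most like Cd37 and Ostf1 (r = 0.997 and 0.995). Lta4h was most like Melk and Ckap2l (r = 0.999 for each), genes of dividing cells that had means of 57.3 and 138 TPM in preNeu and 0 and 0.780 TPM in matNeu. Ptgs1 was most like Tuba8 and Fcnb (r = 0.993 and 0.992), the second a granule gene of the preNeu marker list. Ptges was most like Aldh3b3 and Cpne3 (r = 0.995 and 0.994), Ptgs2 like Tnfaip8l2 and Cd209a (r = 0.994 and 0.993) and Pla2g4a like Ube2f and Exosc8 (r = 0.988 for each). For the low genes r was lower: Hpgds with Pmch and Tmx3 (0.931 and 0.925) and Alox15 with Srf and Gm5857 (0.912 and 0.890).

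Another 62 genes of the pathway were measured, of which 41 passed the filter. From GMP to preNeu 12 were higher and 17 lower, from preNeu to matNeu 14 and 17, and from GMP to matNeu 16 and 21. Of all genes tested, 14.7% were higher and 44.3% lower in the first of these, 22.9% and 39.8% in the second and 22.8% and 54.1% in the third. The median log2 changes of the 41 were 0.00 (-0.0007), -0.11 and -0.64, and those of the 9 members 0.90, -1.28 and -0.73. From GMP to matNeu both medians changed sign under scaling, to 0.09 and 0.0095 with median-of-ratios scaling and 0.60 and 0.0470 with quantile normalization, and that of the 41 at the first step was 0.36 and 0.35. The balance between directions depended on scaling: 15 were higher and 11 lower at the first step, 15 and 17 at the second and 18 and 17 from GMP to matNeu with median-of-ratios scaling, and 17 and 11, 16 and 14, and 21 and 15 with quantile normalization, where the shares of all genes called moved as given for the members.

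Of the other lipoxygenase and leukotriene handling genes, 11 of 18 were tested. In matNeu 8 were higher than in GMP and 2 lower, against 22.8% and 54.1% of all genes, and 9 and 2 under either scaling, against 34.4% and 41.8% with median-of-ratios scaling and 38.2% and 38.0% with quantile normalization. Among the lower genes, 1 passed the filter only through the 3 GMP libraries. From GMP to preNeu 4 were higher and 3 lower, against 14.7% and 44.3% of all genes. With median-of-ratios scaling they were 4 and 1 (23.2% and 28.2% of all genes), and with quantile normalization 6 and 1 (25.3% and 27.2%). From preNeu to matNeu 6 were higher and 2 lower, against 22.9% and 39.8%. In the same order of scalings they were 7 and 2 (30.2% and 33.8%) and 6 and 2 (31.5% and 31.1%). Cyp4f18, which inactivates leukotriene B4 by oxidation, was at 40.1, 33.3 and 33.9 TPM in GMP, 22.8, 19.0 and 20.99 in preNeu and 2251, 2489 and 2171 in matNeu. All matNeu libraries were far above the others, a log2 change of 6.72 ± 0.13 at the second step (limma adjusted p = 1.77e-10, n = 3 per group). The lower level in preNeu than in GMP was called (-0.74, limma adjusted p = 0.000507), but not with median-of-ratios scaling (-0.25) or quantile normalization (-0.20). Ggt5, a gamma-glutamyl transferase that converts leukotriene C4 to D4, rose from a mean of 2.59 TPM in GMP to 7.81 in preNeu and 141 in matNeu, and Ggt1, another enzyme of that family, from a mean of 1.93 TPM in preNeu to 30.4 in matNeu, with 1.24 in GMP. Mgst1, a microsomal glutathione transferase, had means of 158, 462 and 1331 TPM, and Cotl1, which binds 5-lipoxygenase, 85.9, 310.1 and 383 TPM, in the same order. Both steps were called for Mgst1 and the first for Cotl1, whose second step was called with median-of-ratios scaling (0.66) and turned to -0.15 with quantile normalization. Cyp4f13 rose from preNeu to matNeu by 2.31 on the log2 scale. Abcc1, an exporter of leukotriene C4, fell from a mean of 38.9 TPM in GMP to 4.52 in matNeu, with 19.0 in preNeu, a first step that was not called under either scaling.

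Of the phospholipase and arachidonate genes, all 11 tested were called between GMP and matNeu, 2 higher and 9 lower, where 22.8% of all genes were higher and 54.1% lower (2 and 6 with median-of-ratios scaling, against 34.4% and 41.8%, and 2 and 5 with quantile normalization, against 38.2% and 38.0%). At the first step 1 was higher and 6 lower, against 14.7% and 44.3% of all genes. In the same order of scalings they were 2 and 5 (23.2% and 28.2%) and 3 and 5 (25.3% and 27.2%). At the second step 3 were higher and 5 lower, against 22.9% and 39.8%. Under the scalings they were 3 and 5 (30.2% and 33.8%) and 4 and 4 (31.5% and 31.1%). Pla2g7, the platelet-activating factor acetylhydrolase, was at 0, 1.24 and 2.03 TPM in GMP, 5.76, 5.80 and 5.78 in preNeu and 1565, 1537 and 1746 in matNeu (log2 change 7.90 ± 0.33 at the second step, limma adjusted p = 1.05e-08, n = 3 per group). It was highest in the 3 matNeu libraries, and preNeu lay above GMP without overlap. Among enzymes that make polyunsaturated fatty acids, the elongase Elovl5 had means of 196, 133 and 9.38 TPM and fell at the second step. The desaturase Fads1 was at 18.1, 17.3 and 11.9 TPM in GMP, 3.60, 3.40 and 4.14 in preNeu and 0.783, 0 and 0.552 in matNeu, a log2 change of -3.56 from GMP to matNeu. From GMP to preNeu, the log2 change was -2.50 for the desaturase Fads2, -2.84 for the phospholipase Pla2g6 and -2.04 for the phospholipase Pla2g16. Fads2 passed the filter only through the 3 GMP libraries. Fads1 and another of the 9 lower genes passed it only through GMP and preNeu libraries. Between GMP and matNeu, Pla2g6 lost its call with quantile normalization (-0.87) and Pla2g16 with both scalings (-0.49 and 0.0661). Pla2g16 was called higher in matNeu than in preNeu (0.90, limma adjusted p = 0.0121).

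Of the other prostanoid synthases and handling genes, 10 of 14 were tested, and in matNeu 0 were higher than in GMP and 7 lower, against 22.8% and 54.1% of all genes. With median-of-ratios scaling 1 was higher and 7 lower (34.4% and 41.8% of all genes), and with quantile normalization 3 and 6 (38.2% and 38.0%). At the first step 2 were higher and 6 lower, against 14.7% and 44.3% of all genes. With median-of-ratios scaling they were 3 and 3 (23.2% and 28.2%), and with quantile normalization 2 and 3 (25.3% and 27.2%). At the second step 1 was higher and 7 lower, against 22.9% and 39.8%. In the same order of scalings they were 1 and 7 (30.2% and 33.8%) and 2 and 5 (31.5% and 31.1%). Akr1b3, an aldose reductase with prostaglandin F synthase activity, was at 355, 368 and 394 TPM in GMP, 51.7, 63.5 and 60.5 in preNeu and 4.26, 4.94 and 6.07 in matNeu. The groups did not overlap, and levels fell at both steps. Ptgr1, which inactivates leukotriene B4 and prostaglandins, had means of 84.1, 85.4 and 1.34 TPM, the second step being a log2 change of -5.21 ± 0.19 (limma adjusted p = 3.94e-09, n = 3 per group). The log2 change of Ptges3, the cytosolic prostaglandin E synthase, was -3.17 from GMP to matNeu, that of the carbonyl reductase Cbr1 -2.99 from GMP to preNeu and that of the exporter Abcc4 -1.89 from preNeu to matNeu. Hpgd, the prostaglandin dehydrogenase, rose to a mean of 8.16 TPM in preNeu and fell to 1.28 TPM in matNeu.

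Among the receptors, 9 of 15 were tested. At the first step 5 were higher and 2 lower, against 14.7% and 44.3% of all genes. Under either scaling they were 6 and 2, against 23.2% and 28.2% with median-of-ratios scaling and 25.3% and 27.2% with quantile normalization. At the second step 4 were higher and 3 lower, against 22.9% and 39.8%. The same held under both scalings, against 30.2% and 33.8%, and 31.5% and 31.1%. In matNeu 6 were higher and 3 lower than in GMP, against 22.8% and 54.1%. With median-of-ratios scaling they were 6 and 2 (34.4% and 41.8%), and with quantile normalization 7 and 2 (38.2% and 38.0%). Fpr2 and another gene, both called higher at the first step and from GMP to matNeu, passed the filter only through preNeu and matNeu libraries. Ltb4r1, the high-affinity receptor of leukotriene B4, was at 113, 96.7 and 104 TPM in GMP, 828, 810 (809.7) and 699 in preNeu and 228, 293 and 214 in matNeu, highest in preNeu without overlap. Ptgir, the prostacyclin receptor, had means of 2.51, 31.2 and 6.98 TPM in the same order. Fpr2, a receptor of formyl peptides and lipoxin A4, was listed at 0 in all GMP libraries and had means of 86.7 TPM in preNeu and 284 TPM in matNeu. Ptger2, an EP receptor of prostaglandin E2, was at 14.5, 13.8 and 9.53 TPM in GMP, 12.0, 12.3 and 14.6 in preNeu and 51.8, 47.3 and 59.9 in matNeu. GMP and preNeu overlapped, and the matNeu libraries lay above both. The change from GMP to preNeu was 0.05 (0.0518), not called, but it was called with median-of-ratios scaling (0.52) and quantile normalization (0.71). Ptger3, another receptor of prostaglandin E2, and Cysltr1, a receptor of cysteinyl leukotrienes, were lower in preNeu than in GMP, by log2 changes of -3.16 and -1.88. Ptger3 passed the filter through GMP and 1 matNeu library, and was called higher in matNeu than in preNeu (0.84, limma adjusted p = 0.0116).

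**Figure D2:**
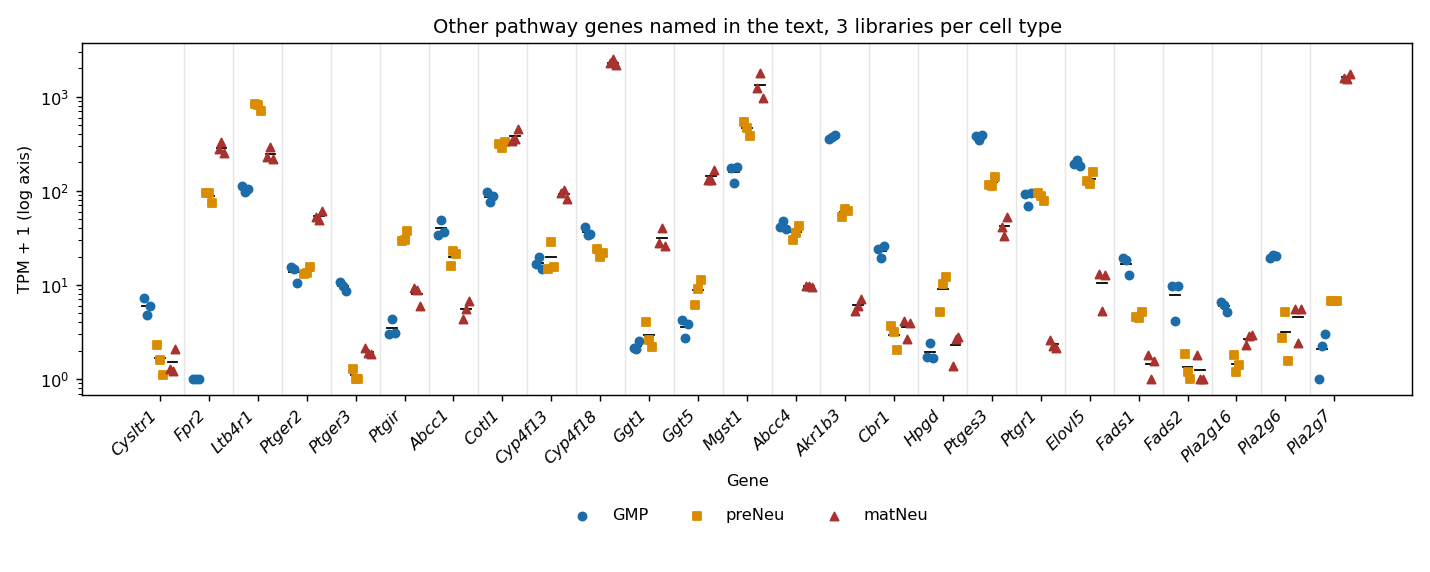
TPM + 1 on a log axis for the other pathway genes named in the text, 3 libraries per cell type; each symbol is a library and each line the mean. Pla2g7 and Cyp4f18 are at 1537 TPM or more in matNeu and at 40.1 TPM or less in the other libraries, and Akr1b3 and Ptgr1 are at 6.07 TPM or less in matNeu.

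CHD4 in wild-type GMPs had a peak in or within 10 kb of 8 of the 10 genes, all but Alox15 and Ptges. The same held for 32.4% of 21938 protein-coding genes and for 42.8% of those with a mean of at least 1 TPM in GMPs. Long genes offer more room for a peak, and the members span between 2.16 and 132 kb. There were 46 peaks: 17 at Pla2g4a, 8 at Lta4h, 6 at Hpgds, 5 at Alox5, 4 each at Alox5ap and Ptgs1, and 1 each at Ltc4s and Ptgs2. Another protein-coding gene reaches into the window of Alox5 (March8), Lta4h (Hal), Ltc4s (Mgat4b), Ptges (Prrx2) and Hpgds (Smarcad1). Of their summits, 25 lay in introns, 9 within 1 kb of a start of any annotated transcript of the gene, 9 upstream and 3 downstream of the gene. In Gfi1-/- GMPs 4 of the 10 genes had a CHD4 peak, where 10.2% of protein-coding genes and 13.9% of those expressed in GMPs did. The Gfi1-/- list is shorter, with 7316 peaks against 35790, and 1 library per genotype allows no test. Of the 46 wild-type peaks 12 (26.1%) were overlapped by a Gfi1-/- peak, against 18.5% of all wild-type peaks. The wild-type list used here holds many more peaks than the study reports, so these shares cannot be set beside those of the study. Peaks with an overlap were the stronger ones, with a median fold enrichment of 24.1 against 6.13 for the others at the members and 21.2 against 6.83 over the whole list.

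The strongest CHD4 peak at a member lay 3′ of Hpgds, a gene near the lower limit of expression, at chr6:65114699-65115525 (GRCm38), with a fold enrichment of 47.5. It was overlapped in Gfi1-/- cells by a peak of fold 16.4. Peaks at chr6:65144541-65145209, over the start, and chr6:65146165-65146856, upstream, with folds of 19.6 and 29.8, were overlapped too. The other 3, upstream of the gene, were not, among them chr6:65151747-65152138 with a fold of 19.9. At Lta4h, the peaks upstream (chr10:93444226-93445060, fold 25.7) and downstream (chr10:93488285-93489187, fold 31.2) of the gene had Gfi1-/- counterparts of fold 8.11 and 7.21. Of the 17 peaks at Pla2g4a 5 had one, among them the peak over the gene start at chr1:149960816-149961468 (fold 24.5).

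At Alox5, none of the 5 wild-type peaks had a Gfi1-/- counterpart. Its 3 strongest lay in the first 6 kb of the gene, at chr6:116455546-116456283, chr6:116458752-116459676 and chr6:116459993-116460364, with folds of 16.3, 18.3 and 17.1. The 4 peaks of Alox5ap (folds 4.11 to 6.21), the peak of Ltc4s (5.27) and that of Ptgs2 (4.34) had no counterpart either. At Ptgs1, an intronic peak at chr2:36244666-36245102 (fold 21.4) had a counterpart of fold 4.99, and the peak over the start (fold 9.31) did not.

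All 10 genes had an H3K4me2 peak in or within 10 kb in each cell type, where 73.6% of protein-coding genes had one in GMP, 74.2% in preNeu and 72.1% in matNeu. For Ptges the count in GMP rests on a gene model of 40.4 kb. Its only GMP peak, at chr2:30927835-30930353, lies more than 10 kb upstream of the RefSeq promoter listed for it, at chr2:30903248-30903547. No H3K4me2 peak of any cell type touched that promoter. The lists differ in how much they cover, 49.8 Mb in GMP, 97.9 Mb in preNeu and 80.4 Mb in matNeu. In the windows of the members, 32.1 kb were covered in GMP, 99.3 kb in preNeu and 82.3 kb in matNeu, in 18, 27 and 31 peaks. At Lta4h, 7.49 kb were covered in GMP, 24.6 kb in preNeu and 18.9 kb in matNeu, where its RNA was lowest. At Ptgs2, 1 peak over the start was listed in each cell type, with folds of 4.09 in GMP, 10.7 in preNeu and 8.02 in matNeu, although RNA was near 0 in GMP and preNeu. The median folds of the whole lists were 2.89, 4.55 and 3.78 in the same order. At Alox5, 2.69, 15.4 and 13.2 kb were covered, and at Alox5ap 5.41, 13.0 and 14.2 kb. Alox15 had a single peak of 504, 577 and 474 bases over its start. With each list reduced to the covered length of the shortest, best q first, 8 of 10 genes had a peak in preNeu and 8 in matNeu, against 54.9% and 60.2% of protein-coding genes, and the members had 11 and 13 peaks there, against 18 in GMP. With -log10 q of at least 5, 4 had one in GMP, 9 in preNeu and 9 in matNeu, against 37.2%, 67.7% and 65.2%.

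CHD4 summits of the members lay inside an H3K4me2 peak in 18 of 46 cases in GMP, 34 in preNeu and 30 in matNeu (39.1%, 73.9% and 65.2%). Over all wild-type CHD4 summits the shares were 29.7%, 56.5% and 49.1%. At Alox5 all 5 summits were inside a preNeu peak. At Hpgds, only the summit over the gene start was inside an H3K4me2 peak, in each of the 3 cell types.

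**Figure D3:**
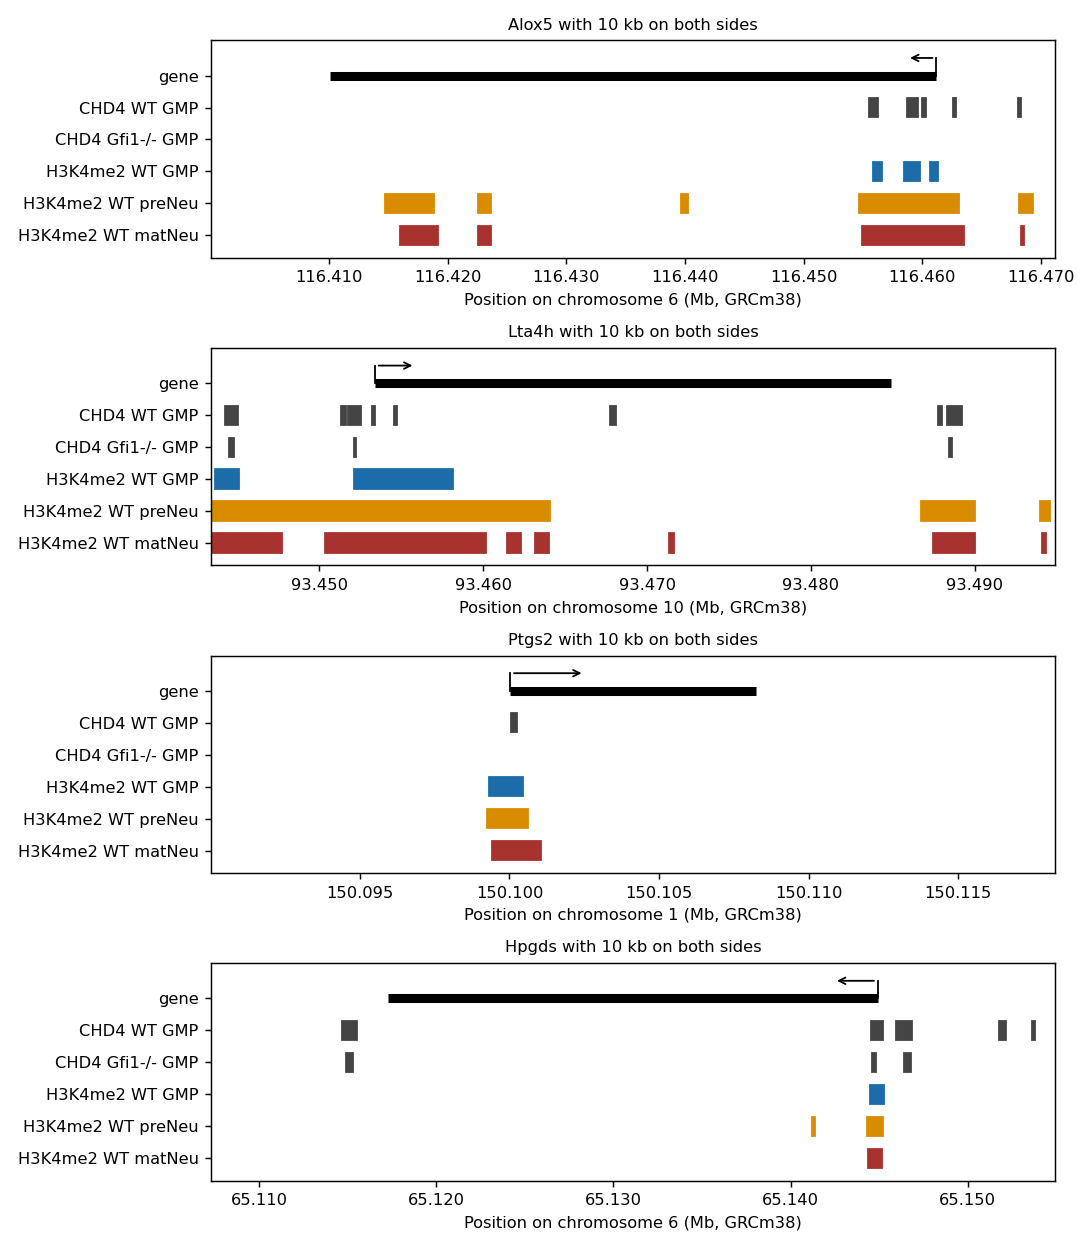
Peak lists over Alox5, Lta4h, Ptgs2 and Hpgds with 10 kb on both sides (GRCm38, position in Mb); the black bar is the gene, the arrow its start and direction, and each box a peak of the list named at the left. No Gfi1-/- CHD4 peak lies at Alox5 or Ptgs2, while 3 lie at Lta4h and 3 at Hpgds.

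Of the 10 genes, 8 have a promoter in the RefSeq table of 300-base promoters (GRCm38.p6), with none listed for Alox5ap and Alox15. Those of Ptgs2 and Ptgs1 are shown because a CHD4 peak and an H3K4me2 peak of every cell type touch both while their RNA moved in opposite directions at maturation, and those of Alox5 and Lta4h because they stand for the opposed leukotriene genes. The promoter listed for Ptges was touched by no CHD4 or H3K4me2 peak. Capitals mark matches, on either strand, to 8 motifs: the GC box GGGCGG (in 35.7% of 32851 listed promoters), the TATA box TATAAA (13.6%), the SPI1 motif GAGGAAGT (3.20%), the C/EBP motif TTGCNNAA (10.8%), the GFI1 core AAATCA (14.0%), the IRF motif AANNGAAA (23.9%), the cyclic AMP response element TGACGTCA (1.79%) and the E box CACGTG (7.15%). The Ptgs2 promoter held a GC box, a C/EBP motif that matches on both strands and an E box. The Ptgs1 promoter held an SPI1 motif, that of Alox5 a GC box and that of Lta4h 2 IRF motifs.
Ptgs2, chr1:150099781-150100080, plus strand: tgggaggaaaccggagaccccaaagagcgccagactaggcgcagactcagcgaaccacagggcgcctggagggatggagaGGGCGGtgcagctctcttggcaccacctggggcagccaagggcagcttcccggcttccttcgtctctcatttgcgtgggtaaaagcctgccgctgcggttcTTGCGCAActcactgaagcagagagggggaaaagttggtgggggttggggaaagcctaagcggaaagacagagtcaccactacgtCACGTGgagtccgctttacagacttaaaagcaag
Ptgs1, chr2:36230176-36230475, plus strand: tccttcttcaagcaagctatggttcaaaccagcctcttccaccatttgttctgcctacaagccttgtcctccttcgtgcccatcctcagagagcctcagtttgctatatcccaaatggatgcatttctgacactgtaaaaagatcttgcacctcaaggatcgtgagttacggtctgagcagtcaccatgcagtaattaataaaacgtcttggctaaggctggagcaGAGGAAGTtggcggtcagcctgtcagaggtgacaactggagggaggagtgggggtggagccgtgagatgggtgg
Alox5, chr6:116461129-116461428, minus strand: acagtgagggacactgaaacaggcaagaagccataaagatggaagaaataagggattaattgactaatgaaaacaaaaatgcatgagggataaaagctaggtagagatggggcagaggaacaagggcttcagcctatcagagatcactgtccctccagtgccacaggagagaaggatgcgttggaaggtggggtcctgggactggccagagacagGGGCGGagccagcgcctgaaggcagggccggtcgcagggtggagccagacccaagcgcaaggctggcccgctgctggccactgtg
Lta4h, chr10:93453146-93453445, plus strand: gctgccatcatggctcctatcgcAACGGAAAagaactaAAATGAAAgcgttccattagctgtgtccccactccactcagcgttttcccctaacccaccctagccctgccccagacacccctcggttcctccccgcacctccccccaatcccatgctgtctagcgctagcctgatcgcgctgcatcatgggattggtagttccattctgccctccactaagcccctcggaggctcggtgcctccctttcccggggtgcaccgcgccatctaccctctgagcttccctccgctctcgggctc

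The 201 bases around the strongest CHD4 summit of Alox5, in an intron and without a Gfi1-/- counterpart, and of Hpgds, 3′ of the gene and with one, are set side by side. The Alox5 window held an SPI1 motif and 3 IRF motifs, of which 2 overlap, and the Hpgds window 2 IRF motifs. Over the windows of all 35728 wild-type CHD4 summits on named chromosomes, 11.8% held the SPI1 motif, 35.2% the IRF motif and 12.1% the GFI1 core, which is in neither of these windows.
Alox5, chr6:116458933-116459133, plus strand: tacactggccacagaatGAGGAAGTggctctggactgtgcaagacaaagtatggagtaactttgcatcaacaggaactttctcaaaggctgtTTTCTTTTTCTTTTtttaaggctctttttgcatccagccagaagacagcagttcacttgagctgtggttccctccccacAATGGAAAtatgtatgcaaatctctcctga
Hpgds, chr6:65114968-65115168, plus strand: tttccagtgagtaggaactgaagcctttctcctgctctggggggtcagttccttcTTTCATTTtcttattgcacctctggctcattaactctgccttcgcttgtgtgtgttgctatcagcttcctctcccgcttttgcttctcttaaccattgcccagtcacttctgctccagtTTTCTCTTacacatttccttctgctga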

How the data were processed

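RNA-seq values are TPM per gene as deposited by the authors. How they were made is not given in the sources used here: the protocol names TopHat and HTSeq, and the submitters' processing notes list kallisto 0.44.0, without its role. Peak lists, 1 library each, carry a fold enrichment (a ratio over background) and a -log10 q-value as deposited by the authors; the same notes list BWA 0.7.17 and MACS2 2.1.0. No peak of the CHD4 and H3K4me2 lists lies beyond the end of a GRCm38 chromosome, and between 13 and 64 peaks of each list lie on other sequences. The H3K4me3 and GFI1 lists were not used, since 2179 and 3105 peaks lie beyond the ends of mouse chromosomes, nor the ATAC lists of preNeu and matNeu, since all 16307 rows of both are equal apart from the peak name.

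Groups follow the sample titles. The 9 libraries were fitted with limma 3.58.1 (R 4.3.3, lmFit and eBayes with a variance trend, cell type only) on log2(TPM + 1); genes entered when 3 or more libraries reached 1 TPM. The fit was tested on simulated data, where it missed part of the changes put in, so a gene that was not called may still differ. A peak counted for a gene of GENCODE M21 when it overlapped the gene extended by 10 kb by at least 1 bp. Of the other pathway genes, up to 12 per comparison were named by size among those called with an absolute log2 change of at least 1, and their levels are given for every cell type. For each tested member the 2 genes with the highest correlation were named, and of each marker list the most abundant gene and those at 0; 1 marker is not reported here, and Siglecf, Ccr3, Cd68, Adgre1 and Cd79a were chosen after their values were seen. Members and lists were chosen with earlier results of these data known. Alternatives were another pseudocount (0.1), no filter, 2 other scalings, a fit of the compared groups alone, no trend, a replicate block, each library left out, and other windows and thresholds for peaks. TPM keeps no depth, so no precision can be given from counts.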

Additional observations from a re-analysis of the deposited data

How the results depend on the processing

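The counts of members, pathway genes and all genes called, both directions together, stayed within 1.5 times the reported count in all 144 alternative values. Counts by direction moved more with median-of-ratios scaling and quantile normalization. Of all genes, 1925 were higher and 5781 lower from GMP to preNeu, against 3027 and 3679, and 3299 and 3559, and 2976 were higher from GMP to matNeu, against 4498 and 4991. Of the 41 pathway genes 17 were lower from GMP to preNeu, against 11 under either scaling, and of the members 3 were lower from GMP to matNeu, against 2 and 1. Of 1632 alternative values of single genes, 1586 kept their direction and side of the threshold, 7 lost a call but kept their sign, 17 gained one and 22 changed sign without being called in the alternative. Among the 22 are the called changes of Ptgs1 from GMP to matNeu with both scalings and of Pla2g16 with quantile normalization. With median-of-ratios scaling, the log2 change from GMP to preNeu turned to 0.37 for Pla2g4a and 0.25 for Abcc4, and that of Ptgs1 from GMP to matNeu to 0.0095. With quantile normalization, it turned to 0.39 and 0.30 for Pla2g4a and Abcc4, to -0.15 for Cotl1 and 0.17 for Cysltr1 from preNeu to matNeu, and to 0.0470 for Ptgs1, 0.0243 for Hpgds and 0.0661 for Pla2g16 from GMP to matNeu. Calls were gained, among others, from GMP to preNeu by Ptgr1 (0.54) and Ptger2 (0.52) with median-of-ratios scaling and by Ggt1 (0.86), Cyp4f13 (0.83) and Ptger2 (0.71) with quantile normalization. With the latter they were also gained by Pla2g6 (1.18) and Cbr1 (0.86) from preNeu to matNeu and by Hpgd (1.08) from GMP to matNeu. Elovl5 was called lower from GMP to preNeu (-0.56) in a fit of those groups alone and without matNeu replicate 2. By construction, the scalings reduce a shift of the median of all genes. Leaving out 1 library at a time, the change from GMP to preNeu ranged from -0.0363 to 0.7459 for Ptgs2, from -0.2328 to 0.7238 for Alox15, from 0.5402 to 1.3275 for Hpgds, from -0.1178 to 0.1118 for Ptgr1, from -0.1227 to 0.1549 for Ptger2 and from -0.151 to 0.3256 for Cyp4f13, and that from preNeu to matNeu from -0.3742 to 0.1546 for Fads2, from -0.3717 to 0.1566 for Cysltr1 and from -1.4496 to -0.493 for Alox15, none of which was called with all libraries. In the same way, the uncalled change of Pla2g4a from GMP to preNeu ranged from -0.2043 to -0.0391. That of Ptges from GMP to matNeu ranged from 0.0873 to 0.2394. Members called ranged from 5 to 6, 8 to 9 and 6 to 6 in the 3 comparisons. With peaks of -log10 q of at least 5, 4 genes had an H3K4me2 peak in GMP, against 37.2% of protein-coding genes, and 4 in all 3 cell types. The cause was not tested.

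Libraries share replicate numbers across cell types, but nothing says that a number marks a shared mouse or day, and 1 of 9 same-numbered pairs deviated together with r above 0.1 (range -0.0394 to 0.123). With the number as a replicate block, 5, 8 and 6 members, 29, 31 and 35 pathway genes and 7652, 8142 and 10032 of all genes were called. The ChIP-seq lists have no replicates.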
